A study of Rattus norvegicus with 8 samples.

Results

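The 6 genes described here are the transcription factor genes Egr1, Egr2, Egr3 and Egr4, the transcription factor gene Npas4 and the synaptic effector gene Arc. They were taken from the count table by Ensembl gene ID, as ENSRNOG00000019422 (Egr1), ENSRNOG00000000640 (Egr2), ENSRNOG00000017828 (Egr3), ENSRNOG00000015719 (Egr4), ENSRNOG00000043465 (Arc) and ENSRNOG00000020009 (Npas4). They are 6 of the 26405 IDs in that table, and all 6 were among the 14522 IDs with enough reads to be tested. Transcripts were counted by RNA sequencing in the right hippocampus of 8 female Sprague-Dawley rats aged 28 months, 1 library per rat. The IGF1 group held 4 rats given an adenoviral vector that expressed rat insulin-like growth factor I (IGF-I), injected into the cerebral ventricles, and the DsRed group held 4 rats injected there with the placebo vector, named for a red fluorescent protein. All 8 rats were thus aged, operated on and exposed to an adenovector, and no untreated or young rats were among the samples analysed here. The sources used here do not give the promoter of the vector, the cells it reached or the time from injection to dissection. The question was whether transcripts of these genes differed in aged rats given the IGF-I vector.

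These genes belong to the immediate early genes, which are transcribed within minutes of synaptic activity or growth factor signals without need of new protein. Calcium entry and kinase cascades act on factors already bound at their promoters, among them the cyclic AMP response element binding protein at cyclic AMP response elements and serum response factor at CArG boxes. In the hippocampus Egr1, also called Zif268, and Arc are widely used as markers of recently active neurons and are needed for lasting memory. Npas4 differs from the others in its selective response to calcium entry in neurons.

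Upstream sequence was available in the RefSeq table for Egr1, Egr2, Egr4 and Npas4, 4 of the 6 genes. It is shown for the first 3 because elements of the kind described above recur in them, in Egr1 and Egr2 at the same distance from the start site. Each stretch runs 5′ to 3′ from 190 to 51 bases before the annotated start. Capitals mark CArG boxes and the letters ACGTCA, the reverse complement of TGACGT, which is the core of the cyclic AMP response element.
Egr1, GRCr8 chr18:26736888-26737027 (plus strand): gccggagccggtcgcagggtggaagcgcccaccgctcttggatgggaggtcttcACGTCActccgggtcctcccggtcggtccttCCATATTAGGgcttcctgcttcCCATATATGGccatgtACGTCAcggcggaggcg
Egr2, GRCr8 chr20:21054492-21054631 (minus strand): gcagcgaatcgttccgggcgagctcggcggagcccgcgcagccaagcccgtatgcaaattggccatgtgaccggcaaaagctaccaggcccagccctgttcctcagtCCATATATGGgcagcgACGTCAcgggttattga
Egr4, GRCr8 chr4:119607868-119608007 (minus strand): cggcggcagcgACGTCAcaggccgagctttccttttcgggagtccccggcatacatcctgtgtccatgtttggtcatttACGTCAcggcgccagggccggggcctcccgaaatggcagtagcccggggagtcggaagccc
Egr1 held 2 CArG boxes, CCATATTAGG at 105 to 96 and CCATATATGG at 83 to 74 bases before the start. It also held ACGTCA at 136 to 131 and at 67 to 62 bases. Egr2 held CCATATATGG and ACGTCA at exactly the positions of the Egr1 pair nearest the start, 83 to 74 and 67 to 62 bases. For Egr2 and Npas4 the start that the table uses lies inside the annotated gene. Egr4 held ACGTCA at 179 to 174 and at 111 to 106 bases before its start and had no match to the CArG box in the 250 bases searched. The Npas4 window matched neither element and held TATATAA at 149 to 143 bases before the start, and that of Egr4 held it at 30 to 24 bases. Both strands of the 250 bases were searched. Among all 33469 rat promoters of that length, 6.95% held TGACGT, 1.497% a CArG box and 3.42% TATATAA. The complete palindrome TGACGTCA, which contains TGACGT and is in 1.59% of all promoters, was in none of the 4. The binding sites of the Egr proteins, GCGTGGGCG and GCGGGGGCG, in 0.478% and 2.45% of all promoters, were in none of the 4 either. These are matches of letters and no measurement of binding.

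Gene reads per library numbered between 16347636 and 27377086, and a further 30.7% to 32.9% of tabulated reads fell outside annotated genes. IGF1 replicate 1 stood apart from the other 7 libraries along the first principal component, which held 31.6% of the variance, and DsRed replicate 1 along the second, with 20.9%. IGF1 replicate 1 also had the most gene reads and the highest share of reads outside genes. Values without either of them are given below beside several results. The dissected tissue was not checked against hippocampal or other cell type markers, because the IDs of those genes were not paired with symbols. In whole tissue, fewer cells expressing a gene and less transcript per cell cannot be told apart.

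None of the 6 genes passed the test between the groups. Of the 6, 4 (Egr1, Egr3, Egr4 and Arc) had fitted levels 14.0% to 20.2% lower in the IGF1 group, and Egr2 and Npas4 had fitted levels 1.52% and 11.8% higher. With edgeR (quasi-likelihood test, p adjusted by Benjamini-Hochberg over all IDs), 0 of the 6 passed 0.05, as did 0% of all IDs tested. DESeq2 and edgeR's likelihood ratio test, which called 13 and 11 IDs over the whole table, called 0 of the 6 as well. At an unadjusted p under 0.05 the edgeR test listed 1 of the 6, Egr1, and 6.6% of all IDs. Fitted levels were lower in the IGF1 group for 48.9% of all IDs. The median log2 fold change was -0.24 over the 6 genes and 0.0027 over all IDs, and the median absolute log2 fold change was 0.24 against 0.083. The standard deviation of log2 CPM between rats of the same group also had a higher median in the 6 genes, 0.27 against 0.14. Some of the 6 varied together across rats, as given below, so their fold changes are not independent. Whether the 6 differed from other IDs of like spread was not tested. The groups overlapped for all 6 genes, and 4.71% of all IDs had groups that did not overlap.

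Egr1 encodes a zinc finger transcription factor that binds GC-rich sites and relays synaptic activity to later genes. In CPM, which is reads relative to the scaled library total, Egr1 stood at 129.9, 122, 142 and 109 in the 4 DsRed rats, in the order of their replicate numbers. The 4 IGF1 rats, in the same order, had 83.9, 111, 107 and 104 CPM. In 3 of the 4 IGF1 rats it lay below every DsRed rat, and the groups overlapped only through IGF1 replicate 2 and DsRed replicate 4. DsRed rats averaged 126 ± 14.1 CPM and IGF1 rats 102 ± 12.1 CPM (SD, n = 4 each). The log2 fold change was -0.31 (standard error 0.10, 95% interval -0.54 to -0.080). The unadjusted p from edgeR was 0.0132 and the adjusted p 0.743. Of all IDs tested, 1.43% had a smaller p and 8.54% a larger absolute fold change. With libraries left out singly, the log2 fold change of Egr1 stayed between -0.37 and -0.22, the value nearest 0 being that without IGF1 replicate 1.

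Egr3, a paralog of Egr1 with a similar zinc finger domain and itself a target of neuronal activity, showed the same ordering of means with a wider interval. It stood at 36.4, 40.3, 32.8 and 34.2 CPM in the DsRed rats and at 22.9, 29.6, 33.3 and 34.1 CPM in the IGF1 rats, again by replicate number. IGF1 replicates 3 and 4 lay within the DsRed range, and replicates 1 and 2 below it. DsRed rats averaged 35.9 ± 3.29 CPM and IGF1 rats 30.0 ± 5.07 CPM (SD, n = 4 each). The log2 fold change was -0.27 (standard error 0.12, 95% interval -0.54 to 0.0050), with an adjusted p of 0.743 from edgeR. Without IGF1 replicate 1, the rat lowest in Egr3, it was -0.15.

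Egr4, the family member whose protein was first described as NGFI-C, stood at 23.0, 23.5, 18.3 and 16.9 CPM in the DsRed rats by replicate number. Its levels in the IGF1 rats were 19.4, 18.2, 15.4 and 17.2 CPM. DsRed replicates 1 and 2 lay above every IGF1 rat, and DsRed replicates 3 and 4 lay inside the IGF1 range. DsRed rats averaged 20.4 ± 3.28 CPM and IGF1 rats 17.6 ± 1.68 CPM (SD, n = 4 each). The log2 fold change was -0.22 (standard error 0.12, 95% interval -0.48 to 0.046), with an adjusted p of 0.743 from edgeR. Without DsRed replicate 2 the log2 fold change was -0.14.

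Egr2, also called Krox20 and best known from its part in hindbrain patterning and myelination, had few reads, between 45 and 117 per library. By replicate number it stood at 4.04, 4.04, 2.85 and 2.43 CPM in the DsRed rats and 4.27, 3.49, 3.11 and 2.62 CPM in the IGF1 rats. The groups covered nearly the same range, the DsRed rats averaging 3.34 ± 0.827 CPM and the IGF1 rats 3.37 ± 0.698 CPM (SD, n = 4 each). The log2 fold change was 0.022 (standard error 0.21, 95% interval -0.46 to 0.50), with an adjusted p of 0.990 from edgeR. It was -0.0042 with libraries scaled by total counts only, -0.12, -0.050 and -0.10 without IGF1 replicate 1, DsRed replicate 3 and DsRed replicate 4, and 0.12 and 0.13 without DsRed replicate 1 and DsRed replicate 2. A difference of up to about 1.41-fold in Egr2 lay inside the interval.

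Npas4 encodes a basic helix-loop-helix PAS factor that pairs with ARNT-type partners and acts on inhibitory synapses. By replicate number it stood at 10.3, 7.74, 2.85 and 3.24 CPM in the DsRed rats and 13.5, 5.29, 4.75 and 2.73 CPM in the IGF1 rats. The highest and the lowest of the 8 rats, IGF1 replicates 1 and 4, were in the same group and differed 4.93-fold. DsRed rats averaged 6.03 ± 3.61 CPM and IGF1 rats 6.56 ± 4.73 CPM (SD, n = 4 each). The log2 fold change was 0.16 (standard error 0.52, 95% interval -1.005 to 1.33), with an adjusted p of 0.956 from edgeR. The sign rested on single libraries. It was -0.48 without IGF1 replicate 1, -0.081 without DsRed replicate 3 and -0.041 without DsRed replicate 4, but 0.52 without DsRed replicate 1. Without both libraries numbered 1 it was -0.13.

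Arc is the effector among the 6, a capsid-forming protein at the postsynapse that takes part in the removal of AMPA receptors from the membrane. By replicate number it stood at 134, 116, 75.8 and 61.6 CPM in the DsRed rats and 77.5, 90.7, 68.9 and 72.2 CPM in the IGF1 rats. DsRed replicates 1 and 2 lay above every IGF1 rat, while DsRed replicate 4 was the lowest of all 8. DsRed rats averaged 96.9 ± 33.8 CPM and IGF1 rats 77.3 ± 9.59 CPM (SD, n = 4 each), so the difference between the means was smaller than the SD of the DsRed rats. The log2 fold change was -0.33 (standard error 0.22, 95% interval -0.81 to 0.16), with an adjusted p of 0.759 from edgeR. Without DsRed replicate 1 the log2 fold change was -0.13, and without DsRed replicate 4 it was -0.49.

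**Figure D1:**
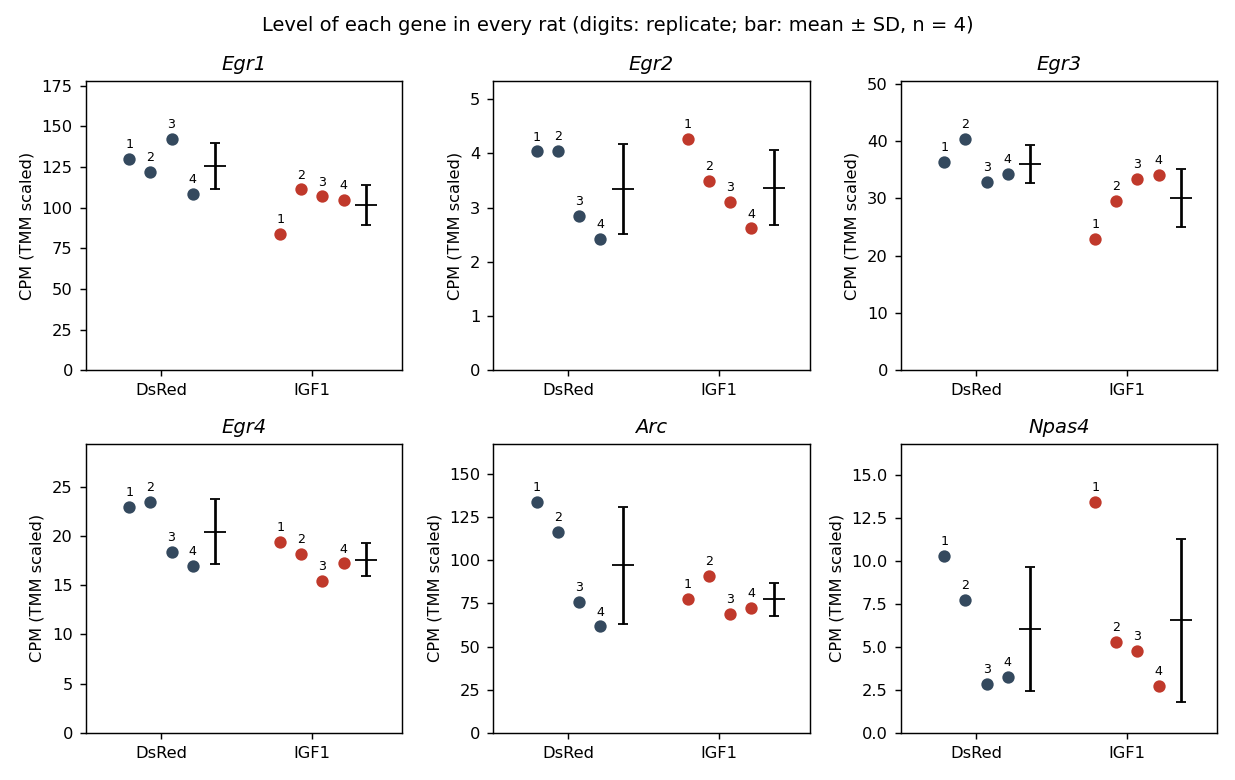
Level of each gene in CPM (y axis, from 0) in the DsRed and IGF1 groups (x axis), with 1 point per rat, its replicate number, and a bar for the mean ± SD. Egr1 shows the least overlap, with 3 IGF1 rats below all DsRed rats, and Npas4 spans 2.73 to 13.5 CPM within the IGF1 group.

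**Figure D2:**
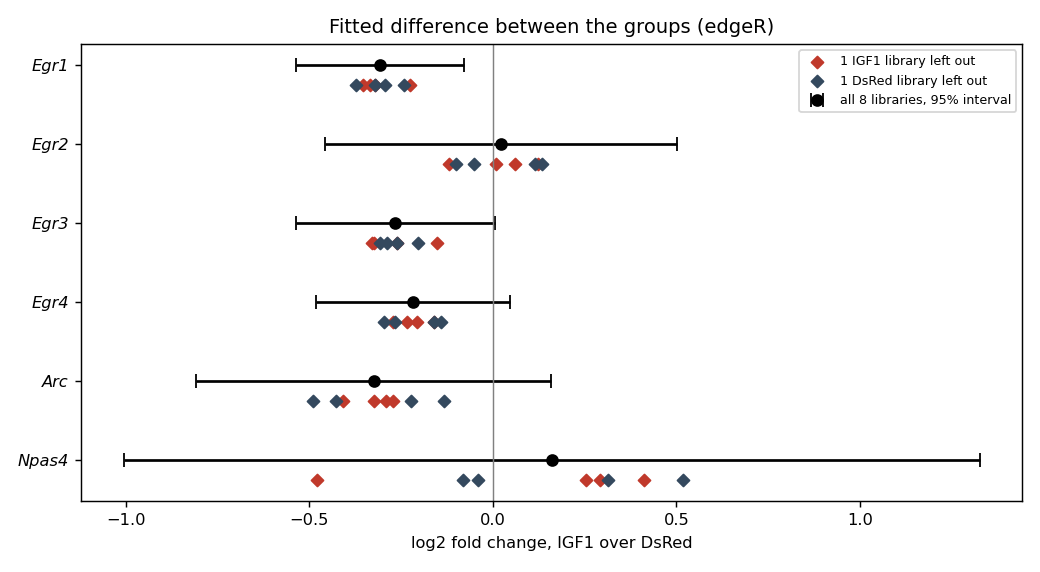
Log2 fold change of IGF1 over DsRed (x axis) for each gene (y axis). Black points and lines are the edgeR estimate and 95% interval from all 8 libraries, and diamonds are estimates with 1 library left out. The interval excludes 0 for Egr1 alone, before adjustment over all IDs, and the diamonds of Egr2 and Npas4 lie on both sides of 0.

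Rats of the same group differed more in each of these genes than in the median ID. The standard deviation of log2 CPM between rats of the same group was above the median of all tested IDs, 0.14, in all 6 genes, and its median over the 6 was 0.27. It was 0.92 for Npas4, higher than in 99.0% of IDs, and 0.39 for Arc, higher than in 89.8%. For Egr2 it was 0.33, higher than in 85.1% of IDs. Egr3, Egr4 and Egr1 were nearer the middle, at 0.21, 0.19 and 0.17, higher than in 68.9%, 66.2% and 61.8% of IDs. IDs of all levels enter these percentages, and the spread is larger where reads are few. The biological coefficient of variation, edgeR's estimate of the spread between rats beyond counting error, takes that into account. It was 50.5% for Npas4, where the trend over IDs of the same read level gave 16.5%, and 21.5% for Arc, where the trend gave 9.20%. The other 4 genes lay near their trend, at 10.8% against 9.25% for Egr1, 12.4% against 10.3% for Egr3, 11.8% against 10.8% for Egr4 and 20.01% against 20.8% for Egr2. Counting error alone would give Npas4 a coefficient of variation of at most 14.6%, at its lowest count of 47 reads, and its levels varied by 72.2% in the IGF1 and 59.9% in the DsRed group.

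**Figure D3:**
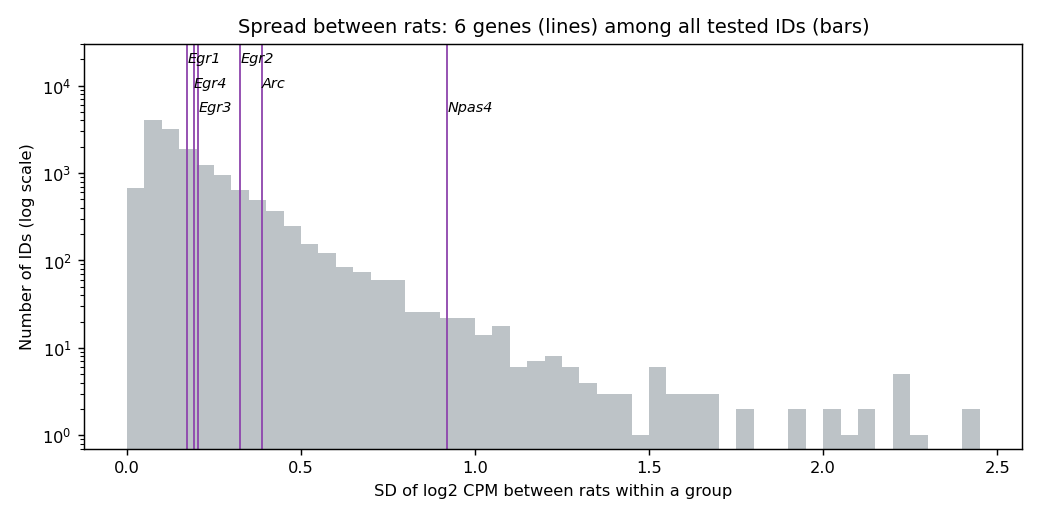
Standard deviation of log2 CPM between rats of the same group (x axis) for all 14522 tested IDs (bars, number of IDs on a log axis) and for the 6 genes (lines). Npas4, at 0.92, lies in the upper tail, and Egr1, Egr3 and Egr4 lie at 0.17 to 0.21.

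The 6 genes did not vary as a single block across the 8 rats. Without IGF1 replicate 1, all 15 pairs of genes correlated positively, with a median r of 0.58 against 0.42 over the 8 rats. DsRed replicates 1 and 2 were above the mean of the 8 rats in every one of the 6 genes, with Arc 0.67 and 0.46 and Npas4 0.93 and 0.52 above it on the log2 scale. DsRed replicate 4 was below the mean in Egr1, Egr2, Egr4, Arc and Npas4, by 0.051 to 0.71, and 0.069 above it in Egr3. IGF1 replicate 1 was split: Npas4 was 1.31 and Egr2 0.37 above the mean, Egr1 fell 0.42 and Egr3 0.50 short of it, and Egr4 and Arc, at 0.044 and -0.12, were near it. That rat thus had the highest Npas4 and Egr2 and the lowest Egr1 and Egr3 of the 8. IGF1 replicate 4 was low in Npas4, at -0.95, and Egr2, at -0.32, and near the mean in Egr1 and Egr3, at -0.11 and 0.064.

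**Figure D4:**
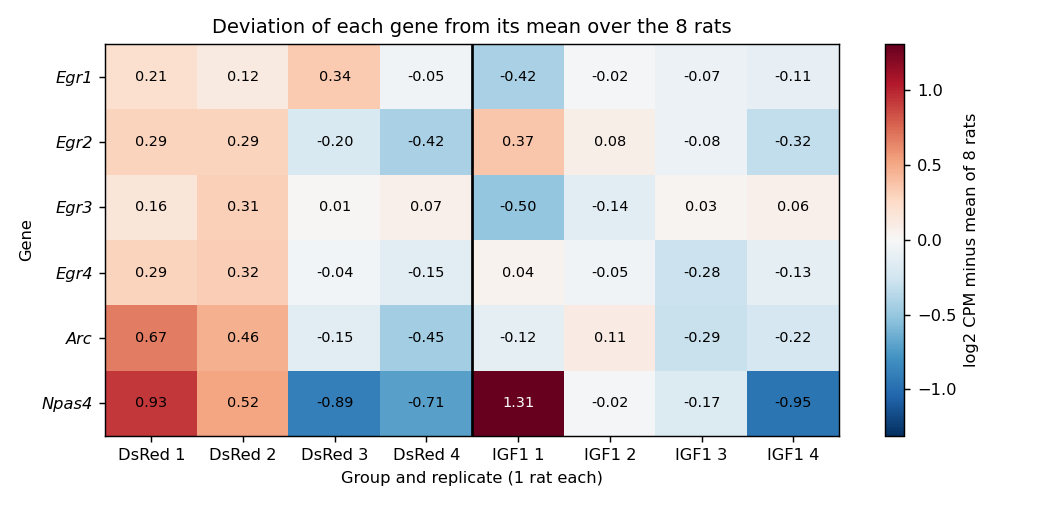
Log2 CPM of each gene (rows) in each rat (columns) minus the mean of that gene over the 8 rats, printed in each cell and shown as colour. DsRed replicates 1 and 2 are above the mean throughout, and IGF1 replicate 1 is high in Npas4 (1.31) and low in Egr1 (-0.42) and Egr3 (-0.50).

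Npas4 and Egr2 followed each other most closely. Over the 8 rats their log2 CPM had a Pearson's r of 0.94 (exact permutation p = 0.00146, 0.0219 after Benjamini-Hochberg adjustment over the 15 pairs of genes). Spearman's rho was 0.90 (exact permutation p = 0.00456, adjusted 0.0543). Without the 2 rats farthest from the median of Egr2, r was 0.97, and with each group centred on its own mean it was 0.94. With libraries left out singly r stayed between 0.93 and 0.97, while the adjusted exact permutation p lay above 0.05 without IGF1 replicate 2, 3 or 4, at 0.0521, 0.0506 and 0.0655. Of the other 14521 IDs tested, 6 had a higher r with Npas4 than Egr2 did. This pair therefore varied together between rats inside both groups, whereas for each gene the log2 fold change between the groups was smaller than its standard error.

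Egr4 and Arc formed the other pair past the threshold, with r of 0.902 (exact permutation p = 0.00402, adjusted 0.0301) and rho of 0.88 (exact permutation p = 0.00724, adjusted 0.0543). Without the 2 rats farthest from the median of Egr4, DsRed replicates 1 and 2, r was 0.57, so much of this relation rested on those rats. The adjusted exact permutation p lay above 0.05 without IGF1 replicate 2, 3 or 4 or DsRed replicate 1, 2 or 3, at 0.0506 to 0.116, with r between 0.87 and 0.92. Among all other IDs, 12 had a higher r with Arc than Egr4 did.

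Of the other pairs among Egr2, Egr4, Npas4 and Arc, none passed the adjusted threshold over the 8 rats. Egr2 had r of 0.74 with Arc and 0.73 with Egr4, and Npas4 had r of 0.64 with Egr4 and 0.62 with Arc, with adjusted exact permutation p of 0.166 to 0.230 for the 4. Their rho was 0.76, 0.74, 0.62 and 0.67, with adjusted exact permutation p of 0.172 to 0.287. Without the 2 rats farthest from the median of Egr2 (first 2 pairs), Egr4 and Arc, r was 0.91, 0.80, 0.47 and 0.36. With each group centred on its own mean, r of Egr2 with Egr4 was 0.88, close to the 0.898 of Egr4 with Arc. Its adjusted permutation p was 0.0402, past the threshold, but is not exact, since centred values were permuted across both groups. The other 3 had centred r of 0.82, 0.79 and 0.68, with adjusted permutation p of 0.0571, 0.0858 and 0.162, likewise not exact. Without IGF1 replicate 1, r rose to 0.93 for Egr2 with Arc and 0.89 for Npas4 with Arc, with adjusted exact permutation p of 0.0327 and 0.0350 over 7 rats. Egr1 and Egr3 had r of 0.72 (exact permutation p = 0.0553, adjusted 0.166) and rho of 0.38, and without IGF1 replicate 1, lowest in both, r was 0.24. Egr1 with Npas4 had r of -0.33 (adjusted exact permutation p = 0.559) and rho of -0.048 over the 8 rats, and r of 0.25 without that rat and -0.59 without DsRed replicate 1. Egr1 and Egr2, which share the CArG box and cyclic AMP element positions printed above, had r of -0.14 (adjusted exact permutation p = 0.746) and rho of -0.024 over the 8 rats, and r of 0.38 without IGF1 replicate 1 and -0.33 without DsRed replicate 1. The relations of Egr1 changed with the rats included. Without IGF1 replicate 1 alone, r of Egr1 was 0.58 with Egr4 and 0.49 with Arc. Without DsRed replicate 3 alone, it was 0.026 with Egr2, 0.46 with Egr4, 0.65 with Arc, -0.10 with Npas4 and 0.88 with Egr3. These 2 rats were the lowest and the highest in Egr1. Without both, r of Egr1 was 0.84 with Egr2, 0.92 with Egr4, 0.93 with Arc, 0.93 with Npas4 and 0.58 with Egr3. Those values rest on 6 rats and were not tested. The rats left out were picked as farthest from the median of Egr1, so the size of r also describes that choice. Leaving out IGF1 replicate 1 alone turned all 15 pairs positive, where 11 were positive with it. The number past the adjusted threshold was then 4 in place of 2.

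**Figure D5:**
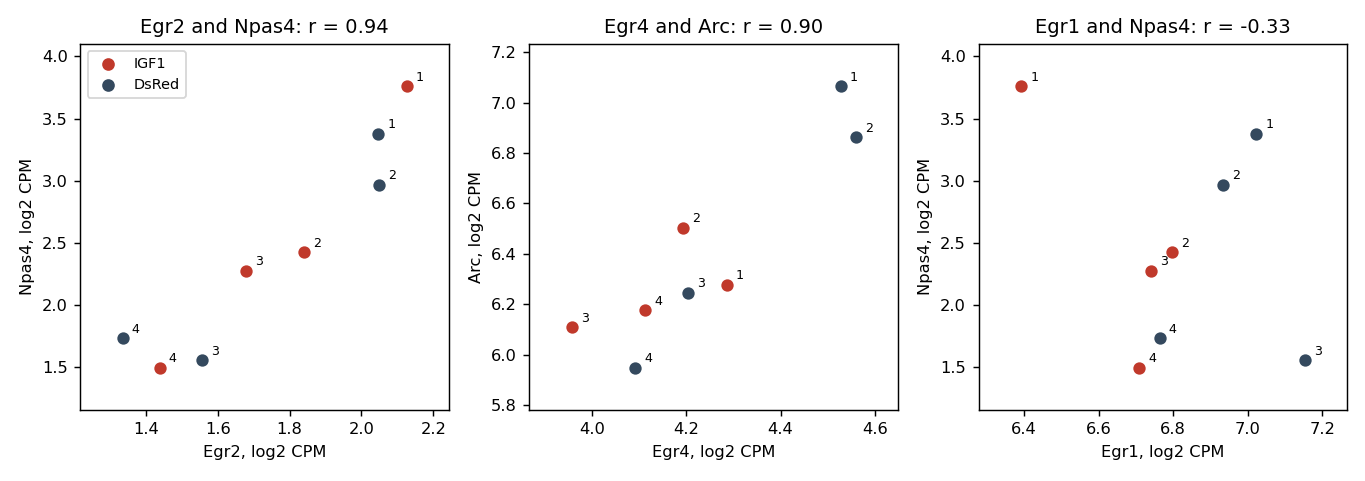
Log2 CPM of gene pairs in the 8 rats, for Egr2 (x) and Npas4 (y), Egr4 and Arc, and Egr1 and Npas4, with 1 point per rat, coloured by group and marked with the replicate number. Egr2 and Npas4 rise together in both groups (r = 0.94), and Egr1 and Npas4 do not (r = -0.33), IGF1 replicate 1 lying alone at upper left.

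The mean of the centred log2 CPM of the 6 genes was highest in DsRed replicates 1 and 2, at 0.42 and 0.34, and lowest in DsRed replicate 4 and IGF1 replicate 4, at -0.29 and -0.28. Among 12691 other IDs whose log2 CPM averaged at least 1, those most like this profile over the 8 rats were ENSRNOG00000018232, with r of 0.96 and rho of 0.95, and ENSRNOG00000007332, with r of 0.95 and rho of 0.83. The files do not pair these IDs with symbols. ENSRNOG00000018232 varied over a narrow range, from 73.1 CPM in IGF1 replicate 4 to 79.2 CPM in DsRed replicate 1. ENSRNOG00000007332 ranged from 28.7 CPM in DsRed replicate 3 to 42.5 CPM in DsRed replicate 1. They were picked as the closest of many, so the size of r describes the choice.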

How the data were processed

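Total RNA was made into libraries with an Illumina TruSeq kit, per the labels' protocols. Tools named in the submitters' processing notes are STAR, HTSeq, edgeR and CASAVA 1.8.2. Genome build, annotation and strand setting are not stated there, and whether overlapping genes share reads was not tested. The authors deposited whole-number read counts per Ensembl ID and a normalised signal for 13595 IDs. The deposited signal is linear, although labelled log2, and was used for an alternative only, on a log2(value + 1) scale. Symbols of the 6 genes came from the selection rule, and no other ID was paired with a symbol, so the lists of related genes and cell type markers were not analysed here. Reads outside genes were left out of library sizes. Counts were analysed in R 4.3.3 with edgeR 4.0.16 (filterByExpr with minimum count 10 and minimum total 15, TMM scaling, glmQLFit and glmQLFTest, two-sided, group as the only term, threshold 0.05), limma 3.58.1 and DESeq2 1.42.0. Log2 CPM used a prior count of 2. Standard errors are the log2 fold change divided by the root of F. Correlations were tested by exact permutation, two-sided, over the libraries. For group-centred values that permutation ran across both groups, so their p is not exact. Promoters are from RefSeq, GRCr8, matched by symbol. The edgeR procedure was tested on simulated data. The 6 genes, lists and tests were chosen with earlier results of these data known. Genes named singly are the 6 and the IDs closest to their mean profile.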

Additional observations from a re-analysis of the deposited data

How the results depend on the processing

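The count of the 6 genes past an adjusted p of 0.05 was 0 under all 20 alternatives, with adjusted p between 0.503 and 0.9998 in edgeR, DESeq2 and limma. Egr1, Egr3, Egr4 and Arc kept a negative log2 fold change under all 20. Over the single libraries left out the range was -0.37 to -0.22 for Egr1, -0.33 to -0.15 for Egr3, -0.30 to -0.14 for Egr4 and -0.49 to -0.13 for Arc. The sign of Egr2 and Npas4 did not hold. Egr2 was -0.0042 with total counts only, -0.030 without both libraries numbered 1, and -0.12 to 0.13 with 1 library left out. Npas4 was -0.13 without both libraries numbered 1 and -0.48 to 0.52 with 1 library left out. At an unadjusted p under 0.05, 2 genes in place of 1 were listed with upper quartile scaling, total counts only and no low count filter. The same held for DESeq2, the likelihood ratio test, limma voom, limma on the deposited signal and the replicate block. Under these settings 4.16% (DESeq2) to 7.12% (total counts only) of all IDs were listed. With 1 library left out, 1 to 3 of the 6 genes were listed, and 4.30% to 9.74% of all IDs. The replicate block listed 2 genes, called 0 and so changed no call. The labels name separate rats, so the replicate number was not treated as a pairing. Libraries with the same number had deviations correlated at 0.055 to 0.24, and libraries with different numbers were not compared. Of 15 gene pairs, 2 passed the adjusted threshold. The number was 3 with each group centred on its mean, where Egr2 with Egr4 passed as well. It was 1 with total counts only, 0 with Spearman's rho, 0 without both libraries numbered 1, and 0 to 4 with 1 library left out. Fewer libraries also raise the smallest p possible, yet Egr2 with Npas4 reached an adjusted exact permutation p of 0.0089 without DsRed replicate 4. Why the number of pairs varied between settings was not tested. The alternative without both libraries numbered 1 was chosen after the data were seen. The alternatives for related genes were not run, since those genes had no IDs. The lowest counts of Egr2 and Npas4 were 45 and 47 reads in a library, which limits the precision of these levels.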

Other observations

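The ratio of reads of 2 genes within a library does not depend on scaling. Npas4 reads were 16.04% of Egr1 reads in IGF1 replicate 1, against 2.61% to 4.75% in IGF1 replicates 2 to 4 and 2.002% to 7.93% in the DsRed rats. Arc reads were 103%, 95.2%, 53.3% and 56.8% of Egr1 reads in the DsRed rats by replicate number, and 92.3%, 81.6%, 64.5% and 69.1% in the IGF1 rats. The IGF1 values of this ratio thus lay inside the DsRed range. Fitted levels of Egr1 and Arc were lower in the IGF1 group by similar shares, 19.3% and 20.2%. Egr3 reads varied less relative to Egr1, between 23.1% and 33.03% over the 8 rats. Over the 12 sets of 4 levels, 6 genes in each group, no single rat lay far enough from the rest of its group to pass Dixon's criterion, the largest gap being 0.762 of the range of its group.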
